A study of Mus musculus with 18 samples.

Results

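The postnatal change of the normal mouse lens was measured by setting whole lenses of 42 day old wild type (wt) mice against those of 2 day old wt mice, across all genes of an Affymetrix Murine Genome U74Av2 array. The comparison rests on 6 of the 18 arrays of the series, 3 for each of these ages, and the 3 arrays of 14 day old wt mice entered the fit, where they share in the estimate of the spread, and serve to place a change before or after 14 days. Each array holds the RNA of an independent pool of 4 to 8 lenses, so n = 3 pools at each age. The mice carry no transgene; the series was made around mice with the onco-Dbl cDNA under the metallothionein promoter, produced in FVB/N and bred to Balb/c, and for the wt animals the sources used here do not give the strain. Whole lenses were extracted, so that fewer cells of a type and less RNA per cell cannot be told apart. With so few arrays, precision is low throughout.

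The lens is a closed body with a single layer of epithelial cells over the front of a mass of elongated fiber cells, wrapped in a basement membrane called the lens capsule. Epithelial cells divide near the equator, leave the cell cycle there and turn into fibers, which fill with crystallins and later lose their nuclei and other organelles. Around birth the organ is still supplied by capsular vessels and grows fast. In the adult it has no vessels, grows slowly, draws most of its energy from glycolysis and keeps its proteins clear with glutathione and other antioxidant systems. The labelled tissue was clear from its defining protein: crystallin alpha A (Cryaa) read 111949, 105001 and 168654 at 2 days and 106492, 183965 and 114063 at 42 days, on a scale where the trimmed mean of all probe sets of an array is 500.

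Signals are given on this scaled, linear scale. A log2 change is the mean log2 signal at 42 days minus that at 2 days, with its standard error (SE), and tests are those of limma over 12422 probe sets with Benjamini-Hochberg adjustment. A probe set was called at an adjusted p under 0.05. Because 3 pools against 3 leave few calls, the text also says for which genes all 3 pools of one age lay above all 3 of the other, which is called no overlap and is a description, not a test. An exact rank test on 3 against 3 pools cannot give a two-sided p below 0.10. Signals under 134, the mean 40th percentile of the arrays, lie near background, where the size of a fold change is not exact.

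The arrays were not alike within an age. Replicate 2 of 2 days correlated with no other array above 0.821 and held the most blood and mitosis RNA, with erythroid markers summing to 37998 against 4147 to 13668 on the other 8 arrays. Replicate 3 of 42 days had the lowest ratio of 5' to 3' Gapdh probe sets, 0.294 against 0.651 to 1.45 elsewhere, a sign of shorter cDNA. Each pool of 2 days was closest not to its own age but to a pool of 14 days. Replicate 1 of 2 days was closest to replicate 1 of 14 days (r = 0.913 across probe sets). Replicates 2 and 3 of 2 days were closest to replicate 2 of 14 days (r = 0.821 and 0.913). Replicate 1 of 42 days was closest to replicate 1 of 2 days (r = 0.905). Replicate 1 of 14 days and replicates 2 and 3 of 42 days had been deposited at trimmed means of 50.4, 24.2 and 48.1 instead of about 500, so that the low deposited scale and the older ages cannot be fully told apart.

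4 genes are described first because they passed the test: prostaglandin D2 synthase (Ptgds) and the aldehyde dehydrogenase Aldh3a1 rose, and the phospholipase Pla2g7 and the protease calpain 3 (Capn3) fell. Of 12422 probe sets tested, 2 were called higher at 42 than at 2 days (0.0161%) and 2 were called lower (0.0161%), 4 in all (0.0322%). At an unadjusted p under 0.05 there were 763 higher (6.14%) and 704 lower (5.67%) probe sets, 1467 in all (11.8%). No overlap between the ages was seen for 1132 probe sets higher at 42 days (9.11%) and 904 lower (7.28%), or, with 1 probe set for each of 8251 genes, for 830 genes higher (10.1%) and 652 lower (7.9%). In the gene lists below, the members called were Ptgds, Aldh3a1 and Capn3, and for every other member named the adjusted p or the overlap is given. Their counts without overlap stand beside these shares of 10.1% and 7.9%, and a range in square brackets after a median is its lowest and highest value with each of the 9 wild type arrays left out in turn. The median log2 change of all these genes was 0.028.

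The number of calls turned on single arrays. Without replicate 1 of 2 days 65 probe sets were called higher and 29 lower, without replicate 2 of that age 3 and 8, and with replicate 3 left out 2 higher and 1 lower. Leaving out replicate 1 of 14 days gave 25 higher and 16 lower calls. Leaving out replicate 2 or 3 of 14 days, or any 1 array of 42 days, left 0 calls either way. A fit to only the 6 arrays of 2 and 42 days, one to all 18 arrays of the series, and one with a term for the low deposited scale made 0 calls each.

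Upstream sequences of the called genes are shown where RefSeq (GRCm38.p6) gave a window, with 5 short motifs searched on both strands of the 250 bases before each start. They were a Maf half-site (TGCTGA), an AP-1 site (TGACTCA), the promoter box with the letters CCAAT, the core promoter motif TATAAA and a GC box (GGGCGG), found in 16.1%, 4.46%, 33.8%, 12.4% and 32.7% of 32851 windows of the same length and with no matches that overlap in what follows. Capitals mark a motif. Capn3, whose main start lies at chr2:120463593, is shown in full from chr2:120463343-120463592 (plus strand), since all 3 of its probe sets separated the ages, and its internal start by the stretches that hold a match, chr2:120476805-120476834 and chr2:120476856-120476885. Ptgds is shown at chr2:25469767-25469796 (minus strand) and Pla2g7 at chr17:43568421-43568450 (plus strand), both by the stretch with a match before a start that lies inside the gene span given below.
Capn3, main start: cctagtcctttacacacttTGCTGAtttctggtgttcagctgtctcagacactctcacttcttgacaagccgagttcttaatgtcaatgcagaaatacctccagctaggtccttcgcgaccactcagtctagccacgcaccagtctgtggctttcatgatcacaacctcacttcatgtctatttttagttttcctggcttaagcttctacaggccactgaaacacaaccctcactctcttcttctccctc
Capn3, internal start, far stretch: tctggacaaagcTGCTGActctgaccacag
Capn3, internal start, near stretch: tttgcatcaagcTGCTGAgggtggaggagc
Ptgds: ggaggccaagccTGACTCAtaaataggggg
Pla2g7: gcccatcatcaccctccCCGCCCcccaggc

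The Maf half-site of the main Capn3 start begins 231 bases before it, and the pair at the internal start 92 and 41 bases before that one. The AP-1 match of Ptgds begins 35 bases and the GC box of Pla2g7 13 bases before the start. A match is a description of the letters and no binding was measured.

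Ptgds (chromosome 2, 25466709 to 25470110) makes prostaglandin D2 and is also a secreted carrier of small lipids. Its signal was 902, 404 and 1599 in the pools of 2 days, 5359, 4342 and 5140.0 at 14 days and then 6474, 8750.5 and 11443 at 42 days. Every pool of 42 days was above every younger pool, and those of 14 days lay between. The log2 change was 3.37 (SE 0.44, adjusted p = 0.0263), which is 10.4-fold. A second Ptgds probe set had a log2 change of 2.02 (adjusted p = 0.0796) with no overlap, and another one of 0.98 (adjusted p = 0.4) with overlapping pools.

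Ptgds is also a product of the iris, ciliary body and pigment epithelium. The list of these tissues, with 12 measured genes, summed to 5302, 3464 and 5697 at 2 days and 11140.4, 13197 and 17182 at 42 days. These sums include Ptgds, which was the largest term at 42 days and gave most of the rise. They are therefore no reading of these tissues apart from Ptgds. Of that list 3 genes, Ptgds among them, were higher and 1 was lower at 42 days without overlap, with a median log2 change of 0.34 [0.13 to 0.43]. The lower one, tyrosinase (Tyr), which starts melanin synthesis, read 73.2, 246 and 153 at 2 days and 70.2, 10.9 and 5.79 at 42 days, the adult values lying below 134. The pigment cell proteins Dct and Pmel overlapped, Dct at 948, 497 and 812 at 2 days against 1208, 560.4 and 802 at 42 days and Pmel at 872, 329 and 655 at 2 days against 493, 452 and 632 at 42 days (Dct and Pmel were chosen after their values were seen). Whether tissue carried along with the lens had a part in the Ptgds values was not tested.

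Aldh3a1 (chromosome 11, 61208510 to 61218418) oxidizes aldehydes that arise from peroxidized lipids and is abundant in the cornea. Its signal was 364, 339.7 and 395 at 2 days, 402, 314 and 216 at 14 days and then 1982, 1952 and 2092 at 42 days. The pools of each age were close together, and only those of 42 days stood apart. The rise was 5.5-fold (a log2 change of 2.46, SE 0.32, adjusted p = 0.0263). A second probe set for the gene was near background at all ages.

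Among 24 genes of cornea and surface epithelium 4 were higher at 42 days without overlap and 0 were lower, with a median log2 change of 0.24 [0.093 to 0.32]. Their summed signal, Aldh3a1 included, was 11964, 4963 and 6180.2 at 2 days and 15557, 17263 and 16096 at 42 days. Transketolase (Tkt), which other tissues make too, was the largest term at 42 days. Tkt and Aldh3a1 together gave most of the rise, so the sums are no reading of the cornea apart from them. Krt12, the keratin that defines the corneal epithelium, read 402, 251 and 327 at 2 days and 464, 304 and 492 at 42 days and overlapped (chosen after its values were seen). The simple keratin Krt19 was 24.9, 8.44 and 16.2 at 2 days and 131, 121 and 120.0 at 42 days, all below 134. Krt18, another keratin of single layered epithelia, was 185, 123 and 147 at 2 days and 362, 235 and 352 at 42 days (a log2 change of 1.05, adjusted p = 0.404). Whether corneal tissue had a part in the Aldh3a1 values was not tested.

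Pla2g7 (chromosome 17, 43567994 to 43612202) cuts platelet activating factor and oxidized phospholipids. Its signal was 4216, 2138 and 4529.9 at 2 days, 3045, 2512 and 2029 at 14 days and then 536, 559 and 566 at 42 days. The pools of 42 days were almost equal and all far below the younger ones. The fall was 6.22-fold (a log2 change of -2.64, SE 0.33, adjusted p = 0.0263).

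Capn3 (chromosome 2, 120463593 to 120504919), a calcium-dependent protease with lens forms of its own in rodents, read 4298, 7268 and 2742 at 2 days, 2243, 1758 and 2496 at 14 days and then 713, 572 and 825 at 42 days. The ages did not overlap, and the pools of 2 days were the most spread. It fell 6.34-fold (a log2 change of -2.66, SE 0.36, adjusted p = 0.0289). Its other probe sets gave log2 changes of -2.70 (adjusted p = 0.0713) and -2.72 (adjusted p = 0.11), both without overlap. Over the alternatives tried, the adjusted p of these 4 genes ranged from 0.00729 to 0.872, and all of them kept their direction.

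**Figure D1:**
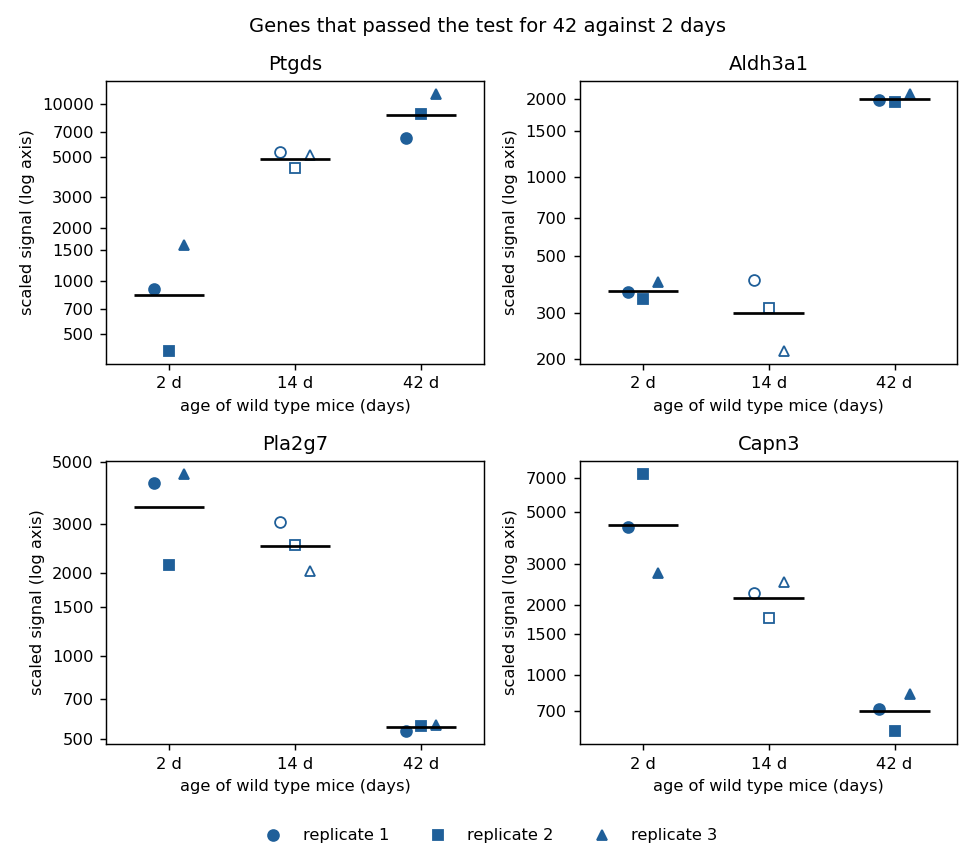
Scaled signal (log axis) of Ptgds, Aldh3a1, Pla2g7 and Capn3 on the 9 wild type arrays by age, with 1 point a pool, open points for 14 days and a line at the mean of the log2 signals. Aldh3a1 lay at 216 to 402 at 14 days and at 1952 to 2092 at 42 days, whereas Ptgds was already at 4342 to 5359 by 14 days.

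No crystallin, the proteins that fill the fibers, passed the test, and in each the pools of 2 and 42 days overlapped. Alpha crystallins are small heat shock proteins, and beta and gamma crystallins are structural proteins of the fibers. The 4 alpha and beta crystallins measured, of 8 listed, and the 5 gamma crystallins, of 8, had median log2 changes of 0.0052 [-0.18 to 0.20] and 0.14 [-0.13 to 0.36]. At an unadjusted p under 0.05 there were 0 and 0 higher ones, and none lower.

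Cryab was 27528, 9514 and 30501 at 2 days and 23542, 16399 and 13313 at 42 days (a log2 change of -0.21, SE 0.46). Cryba1 read 87406, 91144 and 130205 at 2 days and 84620.4, 139076 and 79919 at 42 days (a log2 change of -0.047, SE 0.43). For Crybb2, a beta crystallin of late fibers, replicate 2 of 2 days stood far below the rest, with 99909, 18466 and 121811 at 2 days against 109603, 167153 and 94317 at 42 days (a log2 change of 0.98, SE 0.65, adjusted p = 0.585). All of these ranges overlapped, and a dimmer Crybb2 probe set had the opposite sign (a log2 change of -0.83, adjusted p = 0.507).

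Gamma crystallins gave log2 changes of -0.077 for Crygb (SE 0.39), 0.20 for Crygc (SE 0.45), 0.14 for Crygd (SE 0.46), 0.14 for Cryge (SE 0.44) and 0.24 for Crygs (SE 0.47). Crygc, for example, read 107625, 60742 and 126702 at 2 days and 91377, 147446 and 92627 at 42 days. Replicate 2 was the lowest of 2 days and the highest of 42 days for every gamma crystallin. Other probe sets had log2 changes of the opposite sign for Crygb (0.42) and Cryge (-0.035 and -0.88). The paralogs Crygb to Cryge are close in sequence, and their probe sets may share signal.

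Where genes from the list of fiber membrane and beaded filament separated the ages, they were lower at 42 days. Of 10 measured genes of fiber membrane and beaded filament, 4 were lower without overlap and 0 were higher. The median log2 change was -0.48 [-0.89 to -0.10]. By limma 0 were called, and at an unadjusted p under 0.05 there were 4 lower and 1 higher, the latter with overlap. The median was -0.14, -0.89 and -0.10 without replicates 1, 2 and 3 of 2 days, and -0.27 without replicate 3 of 42 days. Caprin2, an RNA granule protein of elongating fibers, was 19866, 13098 and 26702 at 2 days, 16334, 17323 and 13323 at 14 days and then 3704, 3731 and 5452 at 42 days. It lay 4.52-fold lower at 42 than at 2 days (a log2 change of -2.18, SE 0.34, adjusted p = 0.0682). It passed the test after quantile normalization (adjusted p = 0.0216) and among probe sets with a mean signal over 200 (adjusted p = 0.0498). It did not pass after median scaling (adjusted p = 0.0809), with only the 6 arrays of 2 and 42 days (0.117), with a term for the low deposited scale (0.270) or with all 18 arrays (0.511). With single arrays left out its adjusted p ranged from 0.0272 to 0.296.

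N-cadherin (Cdh2), the adhesion protein that joins fibers, read 2192, 6949 and 6175 at 2 days, 1709.6, 3405 and 3351 at 14 days and then 1027, 1009.5 and 278 at 42 days. The pools of 42 days were below all younger ones, whereas 2 and 14 days overlapped, and the log2 change of 42 over 2 days was -2.78 (SE 0.57, adjusted p = 0.107). The spectrins that line the membrane did not overlap either, Sptbn1 at 6604, 5098 and 8825 at 2 days against 3259, 2784 and 2681 at 42 days (a log2 change of -1.20, adjusted p = 0.146). For Sptan1 the values were 7013, 5646 and 10907 at 2 days and 4299, 4259 and 4194 at 42 days (a log2 change of -0.83, adjusted p = 0.34).

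Other fiber genes overlapped. The water channel Mip, the main protein of the fiber membrane, was 41835, 7230.3 and 30876 at 2 days and 31380.4, 34948 and 18509 at 42 days (a log2 change of 0.37, SE 0.57), and the beaded filament protein Bfsp1 53088, 11936 and 27474 at 2 days and 41328, 46853 and 33622 at 42 days (a log2 change of 0.63, SE 0.52). Mip and Bfsp1 were chosen after their values were seen. Of 8 genes for fiber maturation and loss of organelles, 2 were lower without overlap, Capn3 and, near background, the lipoxygenase Alox12, and 1, Capn2, was higher at 502, 632 and 578 at 42 days against 412, 274 and 426 at 2 days (a log2 change of 0.64, adjusted p = 0.537). Alox15, a lipoxygenase linked to organelle breakdown, read 421, 61.1 and 371 at 2 days and 39.9, 48.7 and 180.2 at 42 days and overlapped.

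**Figure D2:**
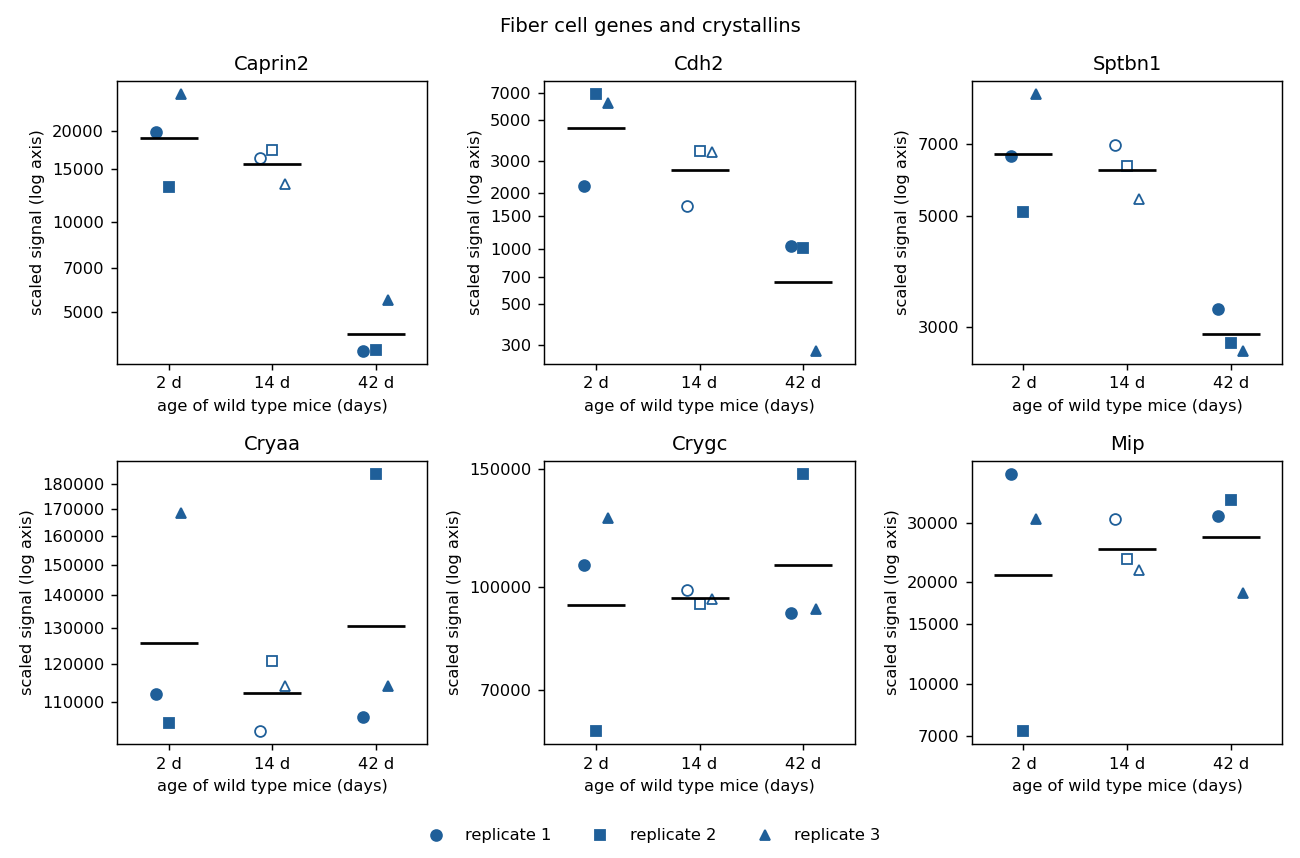
Scaled signal (log axis) of 3 genes from the list of fiber membrane and beaded filament (top) and of Cryaa, Crygc and Mip (bottom) on the 9 wild type arrays by age, with 1 point a pool, open points for 14 days and a line at the mean of the log2 signals. Caprin2, Cdh2 and Sptbn1 were lower at 42 days without overlap, whereas the genes below overlapped between 2 and 42 days.

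Among 37 genes of the actin and membrane cytoskeleton 5 were lower without overlap, beside 7.9% of all genes, and 0 were higher, beside a median log2 change of -0.083 [-0.27 to 0.0035]. Thymosin beta 4 (Tmsb4x), which holds actin monomers, was 5992, 8794 and 8173 at 2 days and 2379, 3053 and 1989 at 42 days (a log2 change of -1.63, SE 0.30, adjusted p = 0.0822). Marcksl1, which binds actin at the membrane, was 2237, 3945 and 1529 at 2 days and 725, 725 and 316 at 42 days (a log2 change of -2.11, adjusted p = 0.137). Radixin (Rdx) and ezrin (Ezr), linkers between actin and membrane, had log2 changes of -1.50 (adjusted p = 0.169) and -0.79 (adjusted p = 0.335), each without overlap.

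Lens transcription factors and epithelial genes gave few separated ages. Of 17 transcription factors 2 were lower and 0 were higher without overlap (median log2 change -0.31 [-0.56 to -0.23]). Gata3, which restrains the cell cycle in fibers, was 248, 368 and 295 at 2 days and 192, 143 and 89.5 at 42 days (a log2 change of -1.15, adjusted p = 0.389), without overlap. Six3, an eye field factor, was 669.8, 1565 and 936 at 2 days and 737, 806 and 500.4 at 42 days (a log2 change of -0.57, adjusted p = 0.554) and overlapped. Sox11 was 205, 5509 and 178 at 2 days, with replicate 2 far above the others, and 213, 16.1 and 141 at 42 days, which overlapped. Pax6, the master gene of eye formation, overlapped at 1596, 3622 and 2501 at 2 days and 1923, 1616 and 1935 at 42 days (a log2 change of -0.42, SE 0.40; chosen after its values were seen).

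Among 22 epithelial genes 2 were higher and 3 were lower without overlap (median log2 change -0.29 [-0.34 to -0.19]). Slc38a2, an importer of neutral amino acids, was 1250.3, 3507 and 3519.8 at 2 days and 781, 587 and 827 at 42 days (a log2 change of -1.78, adjusted p = 0.204). Itm2a, a membrane protein of differentiating tissues, was 214, 1939.9 and 278 at 2 days and 160.4, 74.9 and 176 at 42 days (a log2 change of -1.92, adjusted p = 0.363). The water channel of the epithelium, Aqp1, was 394, 17.9 and 27.7 at 2 days, 407, 82.4 and 40.8 at 14 days and then 927, 901 and 574 at 42 days, so that replicate 1 stood far above its companions at both younger ages (a log2 change of 3.75, SE 1.08, adjusted p = 0.233).

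Capsule and matrix genes separated the ages in few cases and in both directions, beside 10.1% higher and 7.9% lower among all genes. Of 20 basement membrane genes 2 were lower and 1 was higher without overlap (median log2 change -0.11 [-0.48 to 0.067]). The collagen IV chain Col4a1, the main collagen of the capsule, was 13022, 13627 and 35257 at 2 days and 7127, 6035 and 7991 at 42 days (a log2 change of -1.40, adjusted p = 0.239), and perlecan (Hspg2) 1037, 291 and 563 at 2 days and 129, 158 and 108 at 42 days (a log2 change of -2.09, adjusted p = 0.313). Fibulin 1 (Fbln1) was the higher one, with 839, 461 and 601 at 2 days, 2799, 1207 and 1637 at 14 days and then 1855, 2247 and 1889 at 42 days (a log2 change of 1.69, adjusted p = 0.115). The list sum was 44465, 23519.9 and 61489 at 2 days and 23253, 24299.8 and 23528 at 42 days.

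In the interstitial matrix 3 of 19 genes were lower and 1 was higher without overlap. Osteoglycin (Ogn), a small proteoglycan, was 4482, 3678 and 13668 at 2 days and 2722, 2195 and 1635 at 42 days (a log2 change of -1.51, adjusted p = 0.318). Fibromodulin (Fmod), which binds collagen fibrils, was 148, 32 and 61.1 at 2 days and 568, 468 and 458 at 42 days (a log2 change of 2.91, adjusted p = 0.292), with 1344, 54.1 and 206 at 14 days, so that replicate 1 of 14 days was above all others. The fibrillar collagen Col1a2 was 1677, 2365 and 1685 at 2 days and 1445, 1044 and 1124 at 42 days (a log2 change of -0.66, adjusted p = 0.4), without overlap, and its second probe set, near background, had the opposite sign (a log2 change of 1.07, adjusted p = 0.486), also without overlap.

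Signaling genes separated the ages in few cases. Of 35 TGF-beta and BMP genes 2 were higher and 3 lower without overlap, of 31 Wnt genes 1 and 4, of 19 Notch genes 0 and 3, and of 22 receptor signaling genes 2 and 1. Smad4, the shared partner of the receptor Smads, was 973, 1503 and 1711 at 2 days, 1461, 1620.2 and 1373 at 14 days and then 334, 359 and 506 at 42 days. The pools of 14 days lay among those of 2 days, and the level was 3.45-fold lower at 42 days (a log2 change of -1.79, SE 0.31, adjusted p = 0.0796).

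Id2, a target of BMP that blocks differentiation factors, was 3492, 10281 and 6716 at 2 days and 1982, 1496 and 1847 at 42 days (a log2 change of -1.82, adjusted p = 0.119), without overlap. For the receptor Notch3 the values were 289, 439 and 471 at 2 days and 164, 86.1 and 103 at 42 days (a log2 change of -1.79, adjusted p = 0.138). Beta-catenin (Ctnnb1), a junction protein and the effector of Wnt, was 9367, 15142 and 14524 at 2 days and 6673, 5258 and 7137 at 42 days (a log2 change of -1.01, adjusted p = 0.285). The Wnt antagonist Frzb was at 20.6, 17.6 and 32.7 at 2 days, in the background, and 153, 234 and 126 at 42 days (a log2 change of 2.86, adjusted p = 0.215).

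The ligands Tgfb3 and Wnt5b overlapped. Tgfb3 was 992, 416 and 523 at 2 days and 1507, 1482 and 966 at 42 days (a log2 change of 1.11, adjusted p = 0.359), and Wnt5b 628, 126 and 221 at 2 days and 578, 581 and 571 at 42 days (a log2 change of 1.15, adjusted p = 0.448). Of the proteases that cut Notch, Adam17 was 222, 202 and 148 at 2 days and 137, 60.9 and 49.3 at 42 days (a log2 change of -1.34, adjusted p = 0.369) without overlap and Adam10 1749.8, 831 and 1855 at 2 days and 848, 558 and 376 at 42 days (a log2 change of -1.31, adjusted p = 0.278) with it. Downstream of growth factor receptors the kinase Akt1 was 1419, 1114 and 998 at 2 days and 788, 834 and 689 at 42 days (a log2 change of -0.60, adjusted p = 0.489), without overlap, and the adaptor Grb2 376, 430.3 and 293 at 2 days and 303, 129.7 and 91.6 at 42 days (a log2 change of -1.24, adjusted p = 0.363), which overlapped.

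Glycolysis is the main source of ATP in fibers without mitochondria, and its genes separated the ages only upward. Of 18 measured genes 8 were higher at 42 days without overlap against 10.1% of all genes, 0 were lower, and the median log2 change was 0.81 [0.62 to 1.23] beside 0.028 for all genes. None was called by limma, and 9 had an unadjusted p under 0.05. The list summed to 99838, 32653 and 60318 at 2 days, 111840, 59251 and 69826 at 14 days and then 98781, 101367 and 98552 at 42 days, so that replicate 1 of 2 days was within the adult range and replicate 1 of 14 days above it.

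The phosphofructokinases, which commit sugar to glycolysis, had the smallest p-values of the list. Pfkp was 162, 84 and 135 at 2 days, 185, 289 and 289 at 14 days and then 553, 541 and 1104 at 42 days, a 5.64-fold difference between the outer ages (a log2 change of 2.50, SE 0.44, adjusted p = 0.0796). Pfkm was 457, 355 and 345 at 2 days, 403, 565 and 741 at 14 days and then 1438, 1155 and 1279 at 42 days (a log2 change of 1.75, SE 0.32, adjusted p = 0.0822). Both were higher in every pool of 42 days than in any younger one, and the second Pfkp probe set separated 2 and 42 days as well (a log2 change of 1.60, adjusted p = 0.19).

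Lactate dehydrogenase B (Ldhb), which interconverts lactate and pyruvate, was 322, 322 and 237 at 2 days and 672, 1109 and 1915 at 42 days (a log2 change of 1.95, adjusted p = 0.11), and enolase 2 (Eno2), the neuronal enolase, 805, 512 and 579.9 at 2 days and 1281, 1894 and 1811 at 42 days (a log2 change of 1.40, adjusted p = 0.192). Ldha was 7921, 4563 and 2767 at 2 days and 8662, 8063 and 10938 at 42 days (a log2 change of 0.98, adjusted p = 0.356). Aldoa, an aldolase, was 11720.4, 1000.3 and 2017 at 2 days, 13846, 2755 and 3549 at 14 days and then 12014, 14254 and 14886 at 42 days (a log2 change of 2.25, SE 0.79). Replicate 1 of 2 and of 14 days lay close to the adult level of Aldoa, and the other younger pools far below. A second Aldoa probe set, above background, overlapped between 2 and 42 days (a log2 change of 1.03, adjusted p = 0.406). Ldha and Aldoa were chosen after their values were seen. Without replicate 2 of 2 days the median of the list was 0.62 and 1.23 without replicate 1 of that age.

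**Figure D3:**
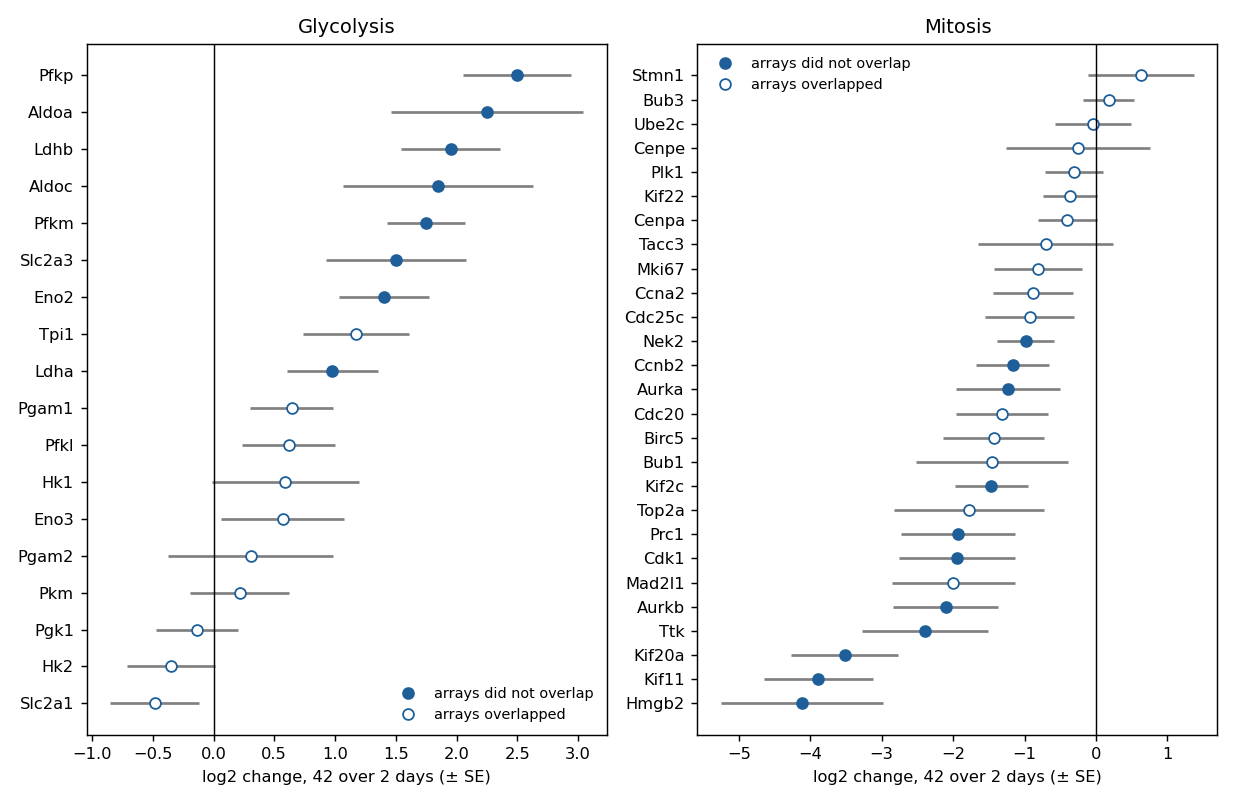
Log2 change of 42 over 2 days with its SE (bars) for the 18 measured genes of glycolysis (left) and the 27 of mitosis (right), n = 3 pools an age, filled where the pools of both ages did not overlap. Of glycolysis genes 15 lie to the right of 0, and of mitosis genes 2.

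Oxidative phosphorylation was nearer to the background, with 4 of 40 genes higher without overlap, 1 lower and a median log2 change of 0.34 [0.061 to 0.50], which was 0.061 without replicate 2 of 2 days. Ndufa8, a subunit of complex I, was 1264, 442 and 740.4 at 2 days and 1914, 1603 and 2005 at 42 days (a log2 change of 1.30, adjusted p = 0.27), and Sdha, of complex II, 144, 163 and 235 at 2 days and 381, 342 and 371 at 42 days (a log2 change of 1.04, adjusted p = 0.363). Cox4i1, of complex IV, was 709, 222 and 454 at 2 days and 900.3, 882 and 1458 at 42 days (a log2 change of 1.34, adjusted p = 0.405), and all of these were without overlap. A second Cox4i1 probe set overlapped (a log2 change of 0.18, adjusted p = 0.897). In the polyol and pentose phosphate pathways 1 of 7 genes was higher, transketolase, which reshuffles sugars of the pentose pathway. Tkt was 7803, 1261 and 1792 at 2 days, 7215, 1526 and 2877 at 14 days and then 8746, 11094 and 9779 at 42 days, with replicate 1 high at both younger ages (a log2 change of 1.92, adjusted p = 0.31).

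Antioxidant genes separated the ages in both directions. Of 38 measured genes 10 were higher and 5 lower at 42 days without overlap, with a median log2 change of 0.25 [0.25 to 0.50], and Aldh3a1 was the one called. Metallothionein 1 (Mt1), which binds metals, was 459.7, 50 and 315 at 2 days, 720.0, 1742 and 1459 at 14 days and then 1897, 2521 and 1051 at 42 days (a log2 change of 3.15, SE 0.71, adjusted p = 0.124). Gstt1, a glutathione transferase, was near background at 2 days, 54.5, 23.3 and 80.6, and 170.2, 427 and 668 at 42 days (a log2 change of 2.96, adjusted p = 0.115).

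Members with the opposite sign included peroxiredoxin 4 (Prdx4), which reduces peroxide in the endoplasmic reticulum, at 695, 2123 and 1211 at 2 days against 509, 325 and 488 at 42 days (a log2 change of -1.49, adjusted p = 0.208). Glutathione reductase (Gsr), which recycles glutathione, was 695, 1470.2 and 964 at 2 days and 560.5, 322 and 342 at 42 days (a log2 change of -1.33, adjusted p = 0.242; chosen after its values were seen). Neither overlapped between the ages.

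Ion and water transport had 3 of 21 genes higher and 1 lower without overlap (median log2 change 0.37 [0.13 to 0.52]). Phospholemman (Fxyd1), a regulator of the sodium pump, was 2546, 463 and 2085 at 2 days, 4467, 2024 and 2438 at 14 days and then 5713, 6946 and 8821 at 42 days (a log2 change of 2.38, SE 0.56, adjusted p = 0.139), and the pump subunit Atp1b3 12708, 7080.0 and 13694 at 2 days and 17145, 18729.5 and 32243 at 42 days (a log2 change of 1.02, adjusted p = 0.327). The amino acid carrier Slc7a5, which works for growing cells, was the lower one, 8477, 3598 and 3838 at 2 days against 2769, 1903 and 1019.6 at 42 days (a log2 change of -1.48, adjusted p = 0.267).

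Mitosis genes separated the ages only downward, and the size of the difference rested on replicate 2 of 2 days. Of 27 mitosis genes 11 were lower without overlap against 7.9% of all genes and 0 were higher, with 11 lower at an unadjusted p under 0.05. The median log2 change was -1.24 [-1.52 to -0.54], and -0.54 without that array. The list summed to 9526, 42328 and 10409 at 2 days, 8384, 10385 and 11286 at 14 days and then 11258, 10699.8 and 13941 at 42 days, so that the sum was high in replicate 2 of 2 days alone, and both other pools of 2 days lay below every pool of 42 days. That pool was also the one with the most hemoglobin RNA.

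Kif11, a spindle motor, was 97.4, 576 and 202 at 2 days and 14.9, 11 and 21.2 at 42 days (a log2 change of -3.89, SE 0.76, adjusted p = 0.0963), and the motor of cytokinesis Kif20a 225, 1139 and 244 at 2 days and 39.7, 43.6 and 23.8 at 42 days (a log2 change of -3.52, adjusted p = 0.115). Cyclin B2 (Ccnb2), which drives entry into mitosis, was 649.9, 3464 and 870.3 at 2 days and 550.5, 529 and 593 at 42 days (a log2 change of -1.17, adjusted p = 0.404; chosen after its values were seen). Kif2c, which takes microtubules apart, was 149.7, 373 and 272 at 2 days and 90.1, 119.8 and 66.9 at 42 days (a log2 change of -1.46, adjusted p = 0.318), and Hmgb2, a chromatin protein of dividing cells, 62.6, 1102 and 65.3 at 2 days and 9.79, 2.73 and 32.5 at 42 days (a log2 change of -4.11, adjusted p = 0.208). At 42 days all of these but Ccnb2 were below 134. Without replicate 2 of 2 days the log2 changes were -3.21 for Kif11, -2.76 for Kif20a and -0.43 for Ccnb2.

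DNA replication had 3 of 27 genes lower without overlap and 0 higher, and its median log2 change of -0.43 [-0.90 to 0.13] became 0.13 without replicate 2 of 2 days. The replication clamp Pcna was 671, 8038 and 2054 at 2 days and 761, 599.9 and 634 at 42 days (a log2 change of -1.75, adjusted p = 0.359), which overlapped. The helicase subunit Mcm2 was 530.2, 877 and 607 at 2 days and 508, 423 and 183 at 42 days (a log2 change of -0.95, adjusted p = 0.422), and the polymerase subunit Pola2 391, 671 and 303 at 2 days and 176, 181 and 144 at 42 days (a log2 change of -1.37, adjusted p = 0.381), both without overlap. Mcm3 overlapped at 621, 1056 and 223 at 2 days and 216, 305 and 171 at 42 days (a log2 change of -1.23, adjusted p = 0.4). Among D cyclins, the Rb family and inhibitors 3 of 19 were lower and 1 higher. E2f1, which switches on replication genes, was 224, 308 and 248 at 2 days and 57.3, 37.5 and 88.8 at 42 days (a log2 change of -2.16, adjusted p = 0.139). Cyclin D1 (Ccnd1), which starts the cycle, was 560.1, 3259 and 913 at 2 days and 634, 384 and 380.3 at 42 days (a log2 change of -1.39, adjusted p = 0.363), and the inhibitor Cdkn1a 506, 134 and 217 at 2 days and 496, 624 and 794 at 42 days (a log2 change of 1.35, adjusted p = 0.32), both with overlap. A second Ccnd1 probe set of similar signal was lower at 42 days without overlap (a log2 change of -0.95, adjusted p = 0.318).

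Chromatin genes separated the ages mostly downward. Of 18 genes 7 were lower and 2 higher without overlap, with a median log2 change of -0.99 [-1.23 to -0.64] (-0.64 without replicate 2 of 2 days). Hmga2, a chromatin protein of fetal growth, was 382, 1447 and 1206 at 2 days, 161, 235 and 318 at 14 days and then 137, 56.2 and 70.3 at 42 days (a log2 change of -3.42, SE 0.57, adjusted p = 0.0796). Ezh2, the methyltransferase of histone H3 lysine 27, was 699.9, 2503 and 1238 at 2 days, 469, 792 and 919 at 14 days and then 177, 181 and 391 at 42 days (a log2 change of -2.48, SE 0.50, adjusted p = 0.107). Every pool of 42 days was below every pool of 2 days for both. The histone chaperone Rbbp4 was 1822, 2946 and 2975 at 2 days and 1159.9, 1170.1 and 1641 at 42 days (a log2 change of -0.95, adjusted p = 0.301), and Cbx5, a protein of packed chromatin, was higher at 971, 1394 and 1223 at 42 days against 481, 675 and 389 at 2 days (a log2 change of 1.24, adjusted p = 0.209). A second Cbx5 probe set of similar signal overlapped and had the opposite sign (a log2 change of -0.54, adjusted p = 0.602).

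Growth genes with an imprint were mixed, with 3 of 18 lower and 1 higher without overlap. Sgce, a sarcoglycan, was higher at 933, 1329.7 and 2023 at 42 days against 265, 449 and 411 at 2 days (a log2 change of 1.89, adjusted p = 0.107), and Mest, expressed in growing tissue, lower at 274, 259 and 233 at 42 days against 337, 927 and 482 at 2 days (a log2 change of -1.06, adjusted p = 0.356). Igf2r, which clears Igf2, was 889, 844 and 1004 at 2 days and 730.5, 616 and 327 at 42 days (a log2 change of -0.79, adjusted p = 0.414), without overlap. The growth factor Igf2 was 1729.7, 8194 and 2125 at 2 days and 1588, 1633 and 1689 at 42 days (a log2 change of -0.93, adjusted p = 0.577), replicate 2 of 2 days standing above the rest (chosen after its values were seen).

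Ribosomal proteins and translation factors gave few separated ages. Of 29 ribosomal proteins 5 were higher and 0 lower without overlap (median log2 change 0.24 [0.10 to 0.37]), and of 23 translation factors 1 was higher and 3 lower (-0.40 [-0.40 to 0.085]). The median of translation factors became 0.085 without replicate 3 of 42 days and -0.0041 with only arrays deposited at 500, and that of ribosomal proteins 0.10 without replicate 2 of 42 days. Of the pools of 42 days, only replicate 1 had been deposited at 500. The initiation factor Eif5 was 2421, 2535 and 3549 at 2 days, 3045, 3286 and 3046 at 14 days and then 1044, 1067 and 1715 at 42 days (a log2 change of -1.17, adjusted p = 0.171). Eif6, which keeps ribosomal subunits apart, was 498, 325 and 225 at 2 days and 676, 686 and 669 at 42 days (a log2 change of 1.03, adjusted p = 0.321).

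Ribosomal protein Rps19 was 6504, 1829 and 2538 at 2 days, 7553, 2574 and 2357 at 14 days and then 12026, 7911 and 7321 at 42 days (a log2 change of 1.51, adjusted p = 0.318), and replicate 1 was the highest of its age throughout. Rps13 was 197, 134 and 199.9 at 2 days and 398, 1345 and 827 at 42 days (a log2 change of 2.13, adjusted p = 0.265), and Rpl8 16032, 9127 and 9838 at 2 days and 19403, 23551 and 17058 at 42 days (a log2 change of 0.81, adjusted p = 0.45). All of these were without overlap.

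Heat shock and folding genes were, without overlap, higher in 5 and lower in 3 of 36 cases, the proteasome and ubiquitin list in 3 and 4 of 31, and cholesterol synthesis in 3 and 0 of 18. The testis and stress chaperone Hspa2 was 8.92, 23.2 and 18.3 at 2 days and 107, 174 and 86.2 at 42 days (a log2 change of 2.91, adjusted p = 0.174), and the inducible Hspa1a 195, 46.2 and 83.2 at 2 days and 199.8, 289.8 and 375 at 42 days (a log2 change of 1.62, adjusted p = 0.342). Proteasome subunits differed in sign, Psmd4 at 4162, 1072 and 1414 at 2 days against 4489, 6483 and 9776 at 42 days (a log2 change of 1.83, adjusted p = 0.287) and Psmc6 at 5465, 8245 and 8643 at 2 days against 4816, 3504 and 3214 at 42 days (a log2 change of -0.95, adjusted p = 0.296). These chaperones and subunits were without overlap.

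The sterol enzymes Fdps and Hmgcs1 overlapped, with log2 changes of 1.27 (adjusted p = 0.359) and -1.05 (adjusted p = 0.371). Nucleolar genes had 3 higher of 19, and apoptosis genes 2 higher and 3 lower of 28. Bid, which links death receptors to mitochondria, was 342, 396 and 504 at 2 days and 186, 49.4 and 112 at 42 days (a log2 change of -2.02, adjusted p = 0.192). The initiator caspase Casp2 was 785, 1951 and 1099.7 at 2 days and 663, 629 and 682 at 42 days (a log2 change of -0.85, adjusted p = 0.373), and the death receptor Fas 301, 26.1 and 467 at 2 days and 709, 580.1 and 584 at 42 days (a log2 change of 2.01, adjusted p = 0.385), so that the receptor stood higher and the others lower at 42 days, without overlap. A second Casp2 probe set overlapped (a log2 change of 0.088, adjusted p = 0.968). Among immediate early genes 2 of 22 were higher and 3 lower. Gadd45b, a stress response gene, was 3839.8, 1974 and 5916 at 2 days and 1014, 1213 and 761 at 42 days (a log2 change of -1.86, adjusted p = 0.107). A second Gadd45b probe set, above background, overlapped (a log2 change of -0.13, adjusted p = 0.942). The transcription factor Fos was 133, 141 and 219.7 at 2 days, 122, 678 and 502 at 14 days and then 549, 393 and 844 at 42 days (a log2 change of 1.82, adjusted p = 0.292).

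**Figure D4:**
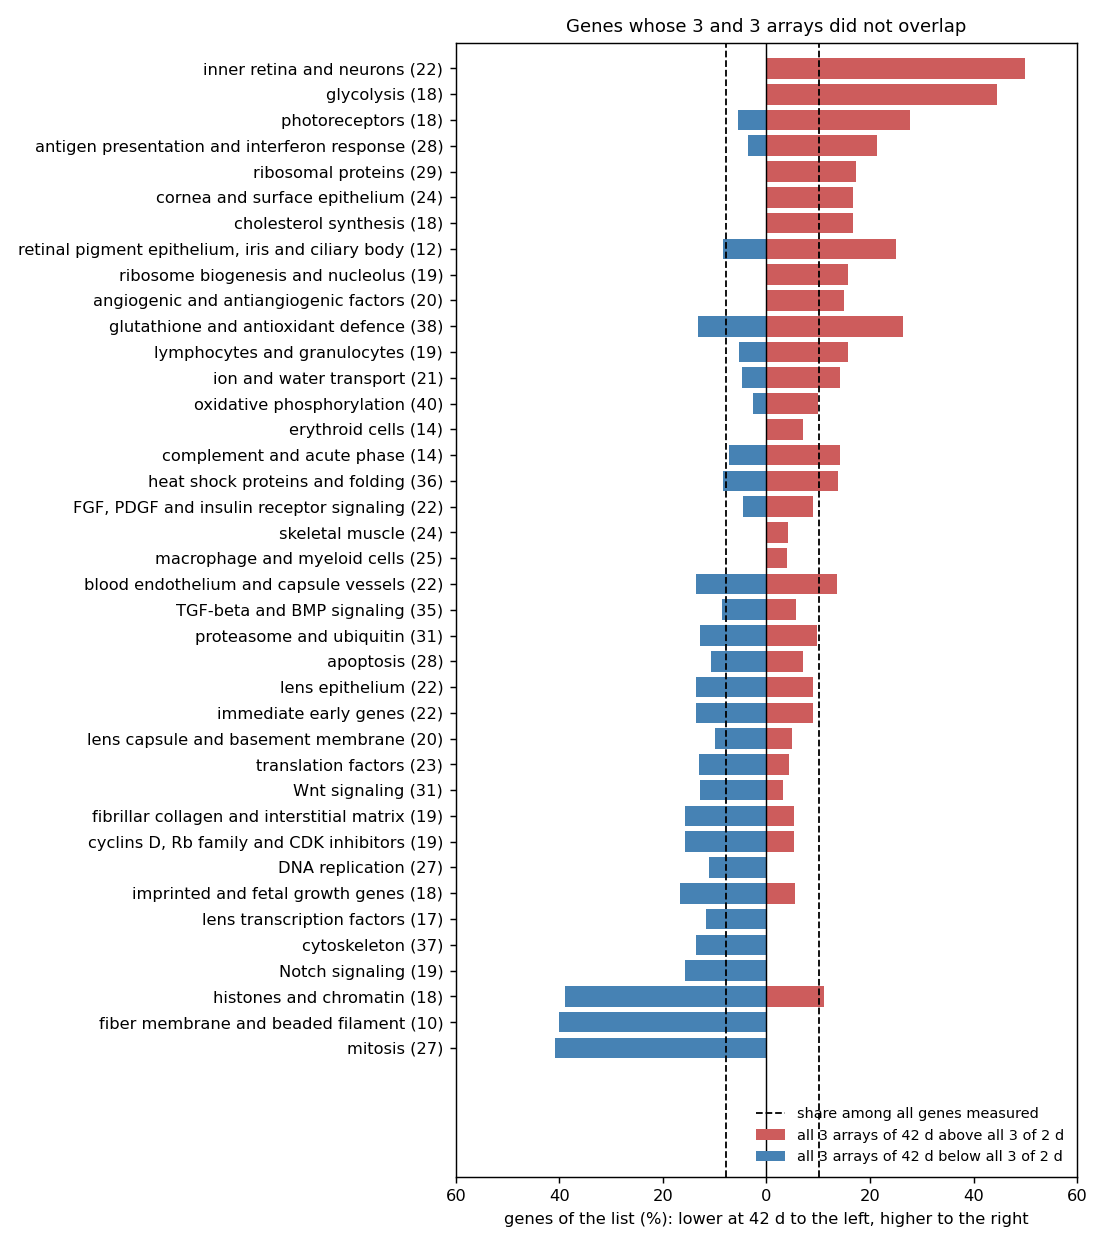
Share of the genes of each list with at least 10 measured (number in brackets) for which all 3 pools of 42 days lay above (right) or below (left) all 3 of 2 days, in percent, with dashed lines at the share among all 8251 genes. Inner retina and neurons, and glycolysis, reach farthest to the right, and mitosis, fiber membrane and chromatin farthest to the left.

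The retina lies behind the lens. Where markers of the inner retina and neurons separated the ages, they were higher at 42 days. Of 22 genes of inner retina and neurons 11 were higher at 42 days without overlap and 0 were lower, with a median log2 change of 1.15 [0.98 to 1.20]. The list summed to 14903, 18169.5 and 14752 at 2 days, 11344, 33809 and 35322 at 14 days and then 33563, 29847 and 34236 at 42 days. Replicate 1 of 14 days was below every other array and the other pools of 14 days were within the adult range or above it.

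Snap25, of the synaptic release machinery, was 1423, 1351 and 2114 at 2 days, 630.3, 7022 and 5538 at 14 days and then 5788, 6701 and 8089.8 at 42 days (a log2 change of 2.09, adjusted p = 0.301; chosen after its values were seen). The vesicle protein synaptophysin (Syp) was 326, 37.2 and 56.7 at 2 days, 121, 189 and 317 at 14 days and then 868, 1086 and 370.4 at 42 days (a log2 change of 3.0, adjusted p = 0.173), and Slc32a1, which loads vesicles with GABA, 779.6, 324 and 586 at 2 days, 184, 2495 and 1406 at 14 days and then 2187, 2511 and 5521 at 42 days (a log2 change of 2.56, adjusted p = 0.269). Thy1, a surface protein of ganglion cells, was 57.9, 142 and 36.4 at 2 days, 62.4, 574 and 1026 at 14 days and then 424, 435 and 765 at 42 days (a log2 change of 2.96, adjusted p = 0.265), and Stmn3, a neuronal regulator of microtubules, 269.6, 299 and 373 at 2 days, 355, 396 and 391 at 14 days and then 668, 691 and 739 at 42 days (a log2 change of 1.17, adjusted p = 0.19). All of these separated 2 and 42 days. Lens fibers express some neuronal genes of their own, and whether retina carried along with the lens had a part was not tested.

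Photoreceptor genes had 5 of 18 higher and 1 lower without overlap, with a median log2 change of -0.012 [-0.25 to 0.25] and sums of 10304, 7952 and 7553 at 2 days and 10981, 11989 and 10752 at 42 days. Guca1a, which activates guanylate cyclase in rods and cones, was 354, 169.6 and 194 at 2 days, 274, 478 and 411 at 14 days and then 1051, 878 and 1363 at 42 days (a log2 change of 2.25, SE 0.39, adjusted p = 0.0796). The cone opsin Opn1mw was 302, 173 and 131 at 2 days, 120.2, 671 and 849 at 14 days and then 582, 704 and 684 at 42 days (a log2 change of 1.79, adjusted p = 0.327). Rom1, of the outer segment discs, was 244, 56 and 162 at 2 days and 346, 264 and 401 at 42 days (a log2 change of 1.35, adjusted p = 0.477), and the G protein subunit Gnb1, which many tissues make, 2124, 2267 and 1244 at 2 days and 2664, 2845 and 3207 at 42 days (a log2 change of 0.67, adjusted p = 0.4). These did not overlap between 2 and 42 days. Other Gnb1 probe sets, above background, did overlap, with log2 changes of 0.085 (adjusted p = 0.951) and 0.061 (adjusted p = 0.983). The rod proteins recoverin (Rcvrn) and arrestin (Sag), chosen after their values were seen, overlapped, with 63.3, 48.3 and 49.4 at 2 days and 44.2, 104 and 19.6 at 42 days for Rcvrn, and 1518, 975 and 1059 at 2 days and 735, 873 and 1263 at 42 days for Sag, and replicates 2 and 3 of 14 days were above all of these, at 580.0 and 839 for Rcvrn and 4712 and 4091 for Sag.

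Vessel markers separated the ages in few cases and in both directions, beside 10.1% higher and 7.9% lower among all genes. Of 22 genes of blood endothelium and capsule vessels 3 were, without overlap, higher and 3 lower (median log2 change -0.15 [-0.19 to 0.15]). VE-cadherin (Cdh5), which defines endothelium, was 68, 223 and 190.2 at 2 days, 36.7, 65.3 and 94.4 at 14 days and then 16.5, 19.4 and 13.5 at 42 days, so that the adult values were below background (a log2 change of -3.13, adjusted p = 0.115). The smooth muscle actin Acta2 was 676, 32.3 and 667 at 2 days and 1295, 840.0 and 1905 at 42 days (a log2 change of 2.38, adjusted p = 0.359). The ligand Efnb2, of arteries and lens cells, was 1412, 1421 and 1540.0 at 2 days and 1239, 722 and 777 at 42 days (a log2 change of -0.72, adjusted p = 0.38), and the VEGF receptor Flt1 80.9, 177 and 92.9 at 2 days and 253, 311 and 275 at 42 days (a log2 change of 1.34, adjusted p = 0.296). All of these were without overlap, and they differed in sign.

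Erythroid genes were, without overlap, higher in 1 and lower in 0 of 14 cases. Hemoglobin alpha (Hba-a1, chosen after its values were seen) was 1851, 16578 and 819.6 at 2 days and 2175, 2992 and 1362 at 42 days, and beta (Hbb-b2) 349, 12183 and 453 at 2 days and 549, 479 and 225 at 42 days, which overlapped. Macrophage genes had 1 higher and 0 lower of 25, lymphocyte and granulocyte genes 3 and 1 of 19, skeletal muscle 1 and 0 of 24, complement 2 and 1 of 14, and angiogenic factors 3 and 0 of 20. For antigen presentation and interferon response 6 of 28 were higher and 1 lower, with Ly6e at 748, 594 and 547 at 2 days against 1205, 1895 and 2797 at 42 days (a log2 change of 1.57, adjusted p = 0.153).

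Of these lists, Ifi35, induced by interferon, was 32.6, 25.9 and 13 at 2 days and 97.6, 168 and 265 at 42 days (a log2 change of 2.87, adjusted p = 0.128), and the factor Irf1 115, 195 and 214 at 2 days and 329, 570.3 and 347 at 42 days (a log2 change of 1.25, adjusted p = 0.387). Serping1, which inhibits complement C1, was 309, 336 and 95.1 at 2 days and 563, 465 and 881 at 42 days (a log2 change of 1.52, adjusted p = 0.287). Troponin T of slow muscle (Tnnt1) was 34.6, 54.1 and 33.1 at 2 days and 249, 218 and 781 at 42 days (a log2 change of 3.14, adjusted p = 0.203). These were higher at 42 days without overlap. Among macrophage genes the protease Ctsc was 95.7, 160.0 and 97.4 at 2 days and 173, 308 and 343 at 42 days (a log2 change of 1.20, adjusted p = 0.408), without overlap, and Mpeg1, which defines macrophages, 44.3, 184 and 269.7 at 2 days and 35.3, 45.8 and 48.9 at 42 days (a log2 change of -1.60, adjusted p = 0.404), with it.

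**Figure D5:**
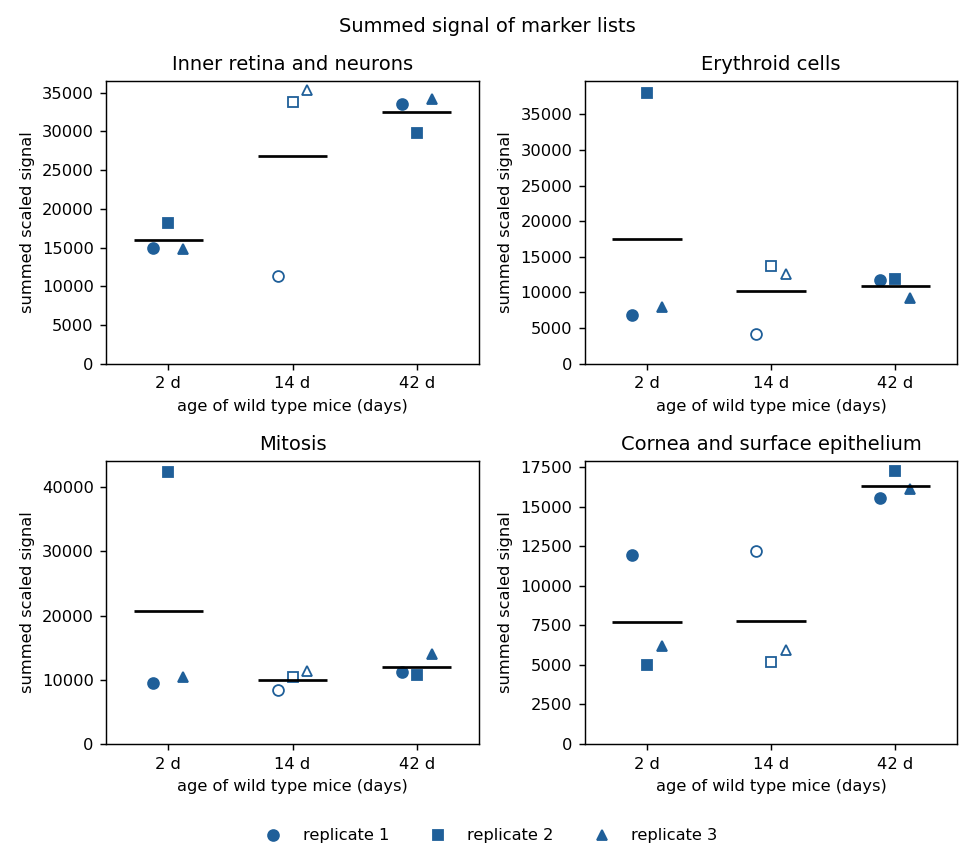
Summed scaled signal of 4 marker lists on the 9 wild type arrays by age, with 1 point a pool, open points for 14 days, a line at the mean of the age and axes from 0. Replicate 2 of 2 days stands alone for erythroid cells and mitosis, and replicate 1 of 14 days is the lowest for inner retina and neurons. The sums of cornea and surface epithelium include Aldh3a1 and Tkt, which give most of their rise.

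Genes outside the lists that came next to the threshold were chosen after their values were seen. Apolipoprotein E (Apoe), which carries lipid, was 5089.9, 705 and 2372 at 2 days, 7452, 9050.1 and 9708 at 14 days and then 18747, 16608 and 19923 at 42 days (a log2 change of 3.17, SE 0.55, adjusted p = 0.0796). Galectin 1 (Lgals1), a sugar-binding protein, was 4544, 534 and 1489.6 at 2 days, 6126, 1352 and 1225 at 14 days and then 18054, 21947 and 14789.6 at 42 days (a log2 change of 3.55, adjusted p = 0.108). Both were higher in every adult pool than in any pool of 2 days.

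The protease inhibitor Serpina3n was 149, 129 and 569.8 at 2 days, 1441, 1023 and 1515 at 14 days and then 1909, 2094 and 1389.9 at 42 days (a log2 change of 3.0, adjusted p = 0.0796). Creatine kinase B (Ckb), which buffers ATP, was 4228, 3626 and 1683 at 2 days, 2735, 2631 and 3610.3 at 14 days and then 9014, 11590.5 and 12095 at 42 days (a log2 change of 1.87, adjusted p = 0.0902), with the pools of 14 days among those of 2 days. Sqstm1, an autophagy receptor, was 1277, 770.3 and 978 at 2 days, 1645, 1521 and 1882 at 14 days and then 2335, 2943 and 3298 at 42 days (a log2 change of 1.52, adjusted p = 0.089). Dbp, a transcription factor of the circadian clock, was 269, 18.7 and 149.9 at 2 days and 897, 721 and 1080.4 at 42 days (a log2 change of 3.29, adjusted p = 0.139), and the sources used here do not give the hour of collection.

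On the lower side Eid1, an inhibitor of differentiation, was 4625, 4849 and 4957 at 2 days, 4364, 5419 and 6310.2 at 14 days and then 1942, 1533 and 1069.5 at 42 days (a log2 change of -1.71, SE 0.29, adjusted p = 0.0796). The nuclear import factor Ipo5 was 4038, 3935 and 5290.4 at 2 days, 3296, 3119 and 2570.4 at 14 days and then 1034, 955 and 2043 at 42 days (a log2 change of -1.79, adjusted p = 0.0822). Ppic, a folding enzyme of the endoplasmic reticulum, was 171, 800.1 and 218 at 2 days and at background at 42 days, 13.6, 13.6 and 16.9 (a log2 change of -4.41, adjusted p = 0.0582). It passed after median scaling (adjusted p = 0.0425) and after quantile normalization (adjusted p = 0.0437). It did not pass with only the 6 arrays of 2 and 42 days (adjusted p = 0.117) or without a variance trend (0.132). With low signals raised to the mean 40th percentile its log2 change was -1.21 (adjusted p = 0.566).

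Dimmer probe sets, near background at both ages, had the opposite sign for Apoe, Capn2, Cryab, Ctsc, Fdps, Fos, Igf2, Ldhb, Mpeg1, Six3 and Slc38a2.

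The arrays of 14 days served to place these differences in time. The contrast of 14 days with the midpoint between 2 and 42 days called 0 of 12422 probe sets in limma (0%) and 480 at an unadjusted p under 0.05 (3.86%), so no gene was placed by the test. As a description, Aldh3a1 had made none of its change by 14 days (share -11.4%, midpoint difference -1.51 in log2, unadjusted p = 0.000145, adjusted p = 0.878) and Pla2g7 17.7% of it (unadjusted p = 0.0116). Capn3 had made 39.1% and Ptgds 75.9% by 14 days (unadjusted p = 0.368 and 0.0404).

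Of the 1132 probe sets higher at 42 days without overlap, 770 (68%) were nearer to their level of 2 days when 14 days old, and the median share of the change made by 14 days was 32.6%. Of the 904 lower ones 576 (63.7%) were nearer to 2 days, with a median share of 35.4%. Without replicate 1 of 14 days the median shares were 27.9% and 26%. Among the genes named above, those with a level of 14 days close to that of 2 days included Smad4 (-7.03%), Eid1 (-8.29%), Ckb (0.18%) and Caprin2 (13.5%), and those close to the adult level Fbln1 (90%), Mt1 (84.6%) and Serpina3n (85.4%).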

How the data were processed

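RNA of whole lenses was hybridised to Affymetrix U74Av2 arrays. The deposited intensity values are one linear signal per probe set, which the authors made with MAS5, as the submitters' processing notes name it. These values lack the GeneSpring normalization of the methods. Detection calls were not used. Depth has no meaning for arrays, whose number limits the precision.

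Each array was scaled to a mean of 500 after trimming 2% at each end, signals under 1 (20 values) were set to 1, and log2 was taken. Of 12488 probe sets 66 controls were left out. By the platform annotation 10833 probe sets have 1 gene symbol, 396 have several and 1193 have none. A gene with several was represented in lists by the one with the highest mean signal. One mean per age was fitted to the 9 wild type arrays by the lmFit function of limma 3.58.1 (R 4.3.3), with eBayes variances that follow a trend, and p-values were adjusted by Benjamini-Hochberg over 12422 probe sets. The fit was tested on simulated data. Positions are those of GRCm38.

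The named genes are the called genes, every crystallin with its own probe set and members among the 4 with the lowest p of a list. Not all of these 4 are named for each list, some lists have no named member, and the choice among the 4 followed no stated rule. Other names are marked in the text. The members and the 43 lists were chosen with earlier results of these data known. Alternatives tried were median scaling, quantile normalization, a signal floor, a filter on dim probe sets, other sets of arrays, no variance trend, a replicate block, the deposited scale, a rule of ratio and overlap, and each array left out.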

Additional observations from a re-analysis of the deposited data

How the results depend on the processing

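Against 2 probe sets called higher and 2 lower at 42 than at 2 days, several alternatives gave 0 and 0. They were all 18 arrays, only the 6 arrays of both ages, low signals raised to the mean 40th percentile, no variance trend, and a term for the low deposited scale. The counts were 2 and 4 after quantile normalization, 1 and 0 with a replicate block, and 990 and 787 by a ratio of means of at least 1.5 without overlap. Leaving out each array in turn gave 0 to 65 higher and 0 to 29 lower calls. An alternative chosen after seeing the data, which left out both replicate 2 of 2 days and replicate 3 of 42 days, gave 0 higher and 1 lower. Same-numbered pools did not deviate together in every pair (correlations of -0.18 to 0.55), so the numbers were not taken as pairs. The midpoint contrast called 0 probe sets under each alternative for which it was computed, which leaves out the fit to only the 6 arrays, without 14 days, and the rule of ratio and overlap. For the named genes 2588 alternative values kept direction and side of the threshold, 52 passed it where the reported value did not, 52 lost it and 36 changed sign, all of the last for genes that were not called. The setting with only arrays deposited at 500 keeps 1 pool of 42 days, replicate 1. Its log2 changes were -0.24 for Cryaa, 0.24 for Cryab, -0.040 for Crygc, -0.13 for Crygd and -0.14 for Cryge. After quantile normalization they were -0.072 for Cryaa, -0.12 for Crygc and -0.16 for Crygs, and with the term for the low deposited scale -0.028 for Cryaa, -0.37 for Krt12 and 0.0077 for Pax6. Without both arrays they were 0.024 for Cryba1, -0.0087 for Crygc, 1.05 for Hba-a1, 0.37 for Hbb-b2 and -0.12 for Mip. With single arrays left out the log2 change ranged from -0.19 to 0.27 for Cryaa, -0.75 to 0.093 for Cryab, -0.30 to 0.13 for Cryba1, -0.29 to 0.093 for Crygb, -0.12 to 0.41 for Crygc, -0.16 to 0.36 for Crygd, -0.13 to 0.36 for Cryge, -0.10 to 0.56 for Crygs, -1.42 to 0.75 for Hba-a1 and -0.40 to 0.87 for Mip. Of the list medians 49 of the alternative values moved beyond the spread and 811 did not. The cause of these differences was not tested. Probe sets near background have no exact fold change.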
